A study of Mus musculus with 66 samples.

Results

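The microRNA genes and small RNA host genes are 33 of the 13957 genes in an expression table of mouse embryonic stem (ES) cells leaving mitosis. They were chosen by symbol alone: symbols that begin with Mir and a digit, with Mirlet, or with Snhg and a digit, plus Gas5. Of the 33, 15 are microRNA hairpin genes and 18 are hosts, made up of 5 microRNA hosts and 13 small nucleolar RNA (snoRNA) hosts. At least 1 TPM in any of the 18 columns was reached by 24 members, 11 hairpin genes and 13 hosts, and the counts below are over these 24. TPM, the unit of the expression table, corrects RNA abundance for the length of the gene and the size of the library.

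The RNA came from a derivative of the ES cell line E14Tg2a (129/Ola) in which auxin causes degradation of 2 nuclear receptors, Esrrb and Nr5a2, and 54 libraries were made. Cells with auxin and cells without auxin were each taken at 9 stages: growing asynchronously, arrested in mitosis, and at 7 times after release, every 10 minutes from 20 to 60 and then at 90 and 120 minutes. Values after release are always given in that order of times, and a 0 is a gene listed at 0, which may be a failed estimate. Each of the 18 groups had 3 libraries, and nothing says that they were separate cultures. Titles give the arm, since the labelled treatment is ctl throughout. All RNA groups share this derivative line. No RNA group had auxin in cells with stable receptors, so auxin, loss of Esrrb and loss of Nr5a2 cannot be told apart. The sources used here give neither the agent of the arrest nor the number of clones. Nr5a2 binding was mapped by ChIP-seq in wild-type E14Tg2a cells, with 12 libraries of Nr5a2 and of input in interphase and in mitosis. Each TPM value is an average that the authors took over 3 libraries, so no value below has a replicate error, no difference has a test, and the depth behind a value is unknown.

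A microRNA is cut from a hairpin in a longer RNA by Drosha and then Dicer, and its seed, bases 2 to 8 of the mature strand, pairs with messenger RNAs that are then repressed. The hairpin often lies in an intron or exon of a host gene, and the rest of the host RNA is spliced or degraded. SnoRNAs guide the chemical modification of ribosomal RNA and are released from introns of their hosts. The exons of many snoRNA hosts encode no protein, and their spliced RNA is removed by nonsense-mediated decay. ES cells use microRNAs of the miR-290 and miR-17 families to pass quickly from G1 into S phase. The libraries were made from total RNA depleted of ribosomal RNA, so the values of hairpin genes are of longer RNA over the hairpin and not of the mature microRNA.

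Mature sequences are shown for the hairpins and hosts whose values the account turns on, as the products that these loci encode, not as RNAs measured here. They are given 5′ to 3′ from RefSeq on GRCm38.p6, with the seed in capitals. The RefSeq table held no entry for Mir3078. The first 3 share the 6 bases AAGUGC inside the seed, which 16 of 1738 mouse mature sequences in the table do.
mmu-miR-20a-5p: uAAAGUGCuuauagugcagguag
mmu-miR-294-3p: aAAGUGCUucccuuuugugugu
mmu-miR-290a-3p: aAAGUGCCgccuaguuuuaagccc
mmu-miR-92a-3p: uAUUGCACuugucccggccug
mmu-miR-34a-5p: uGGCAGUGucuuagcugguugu
mmu-let-7d-5p: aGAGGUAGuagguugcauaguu
mmu-miR-101a-3p: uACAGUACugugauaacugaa
mmu-miR-496a-3p: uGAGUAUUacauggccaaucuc
mmu-miR-298-5p: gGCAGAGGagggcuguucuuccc
mmu-miR-30a-5p: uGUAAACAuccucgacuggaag
mmu-miR-22-3p: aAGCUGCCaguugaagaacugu
mmu-miR-1946b: gCCGGGCAgugguggcacaugcuuuu
The miR-92a entry comes from the hairpin Mir92-1 inside Mir17hg, and the miR-22 entry from Mir22 inside Mir22hg. The other sequences belong to hairpin genes of the same number in the expression table.

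Of the 8 ES cell markers, 7 were in the table and each reached 1 TPM, and Sox2 was not analysed here. Their summed level was 35.4 to 97.5 TPM per column with auxin and 39.0 to 135 TPM without auxin, and all 7 are called lower with auxin in the authors' deposited table. The part of this marker difference in the members' values was not tested. Of 7 fibroblast feeder markers 2 were in the table, Col1a1 and Thy1, with sums of at most 0.369 TPM with auxin and 0.293 TPM without auxin. Neural progenitor markers, 3 of 5 in the table, summed to at most 8.16 TPM with auxin and 8.04 TPM without auxin. Of these the authors' deposited table calls Nes higher and Pax6 lower with auxin. Sums of trophectoderm, mesendoderm and primitive endoderm markers were at most 1.72, 1.21 and 0.546 TPM with auxin and 1.48, 1.02 and 0.615 TPM without auxin. The listed genes summed to 17155 to 46542 TPM per column with auxin and 17189 to 49059 TPM without auxin, lowest in mitosis and highest at 60 minutes in both arms. The median log2 ratio of 60 minutes to mitosis over the 8999 genes of at least 1 TPM was 0.95 with auxin and 1.01 without auxin. Levels of single genes are therefore also given relative to this shift. In bulk RNA, fewer cells of a kind and less RNA per cell cannot be told apart.

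The members followed at least 4 time courses: a pulse between 40 and 60 minutes (Mir20a, Mir1946b) or at 40 and 50 minutes (Mir30a), a gain by 60 minutes that was held to 120 minutes (Gas5, Mir22hg, Snhg10, Mir101a), a late gain (Mir34a, Mirlet7d, Mir17hg), and a decline from mitosis onward (Mir496a). Snhg6 was high at 60 and 120 minutes and lower at 90 minutes. These groups were formed after the values were seen and carry no test. At 60 minutes 12 of the 24 members had passed 2-fold above mitosis with auxin, and 12 without auxin. The same fold was passed by 46.8% of all genes with auxin and by 50.8% without auxin, so these shares are near the background. Folds from mitosis are on the scale of TPM + 1, which understates low genes. The counts include genes listed at 0 in mitosis in both arms, Mir20a, Snhg12, Snhg17 and Snhg5, whose place depends on the added 1.

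The pulse was highest in Mir20a, a hairpin of the miR-17 to miR-92 cluster at chr14:115044157-115044263 (GRCm38.p6). With auxin, Mir20a stood at 0.629 TPM in asynchronous cells and 0 TPM in mitosis, then 0.669, 0.839, 12, 25.5, 21.3, 4.54 and 2.39 TPM after release. Without auxin, Mir20a stood at 0.596 TPM in asynchronous cells and 0 TPM in mitosis, then 0.744, 1.44, 8.2, 22.9, 20.0, 5.13 and 3.39 TPM after release. In both arms it was high at 40, 50 and 60 minutes and under 6 TPM at every other stage. Mitosis was listed at 0 in both arms, so no ratio to mitosis is given. From 60 to 120 minutes it was lower by more than 2-fold in both arms, as were 4 members with auxin and 4 without auxin, against 4.02% and 4.73% of all genes.

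Mir17hg is the annotated host of that cluster, and its RefSeq span, chr14:115044390-115046728, begins 127 bp beyond the end of Mir20a and overlaps Mir19b-1 and Mir92-1. With auxin, Mir17hg stood at 28.7 TPM in asynchronous cells and 7.75 TPM in mitosis, then 9.76, 8.99, 12.3, 13.5, 24, 29.9 and 40.3 TPM after release. Without auxin, Mir17hg stood at 26 TPM in asynchronous cells and 8.75 TPM in mitosis, then 9.62, 9.27, 13.8, 12.9, 23.5, 28.7 and 38 TPM after release. Mir17hg thus had no pulse: its highest columns were at 120 minutes, where Mir20a had returned to 2.39 TPM with auxin and 3.39 TPM without auxin. Its log2 ratio to mitosis at 120 minutes was 2.24 with auxin and 2.0 without auxin. A pair of neighbours in 1 known transcription unit therefore had different time courses in this table, and the sources used here do not say how reads were divided between them.

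Mir1946b, at chr9:21613444-21613576, repeated the pulse at a lower level. With auxin, Mir1946b stood at 1.65 TPM in asynchronous cells and 1.62 TPM in mitosis, then 2.09, 1.96, 5.76, 9.6, 8.18, 3.4 and 3.05 TPM after release. Without auxin, Mir1946b stood at 1.57 TPM in asynchronous cells and 1.58 TPM in mitosis, then 1.19, 2.6, 6.69, 9.94, 8.44, 3.73 and 2.58 TPM after release. Its highest column was 50 minutes in both arms, and asynchronous cells and mitosis were alike. The printed mature sequence resembles the start of the B1 repeat, a short interspersed element present in many copies, so the placement of its reads is uncertain. The nearest listed gene, Smarca4, a chromatin remodelling ATPase 2530 bp away, was highest at 90 minutes, with 3.03, 3.32 and 4.38 TPM at 40, 50 and 60 minutes with auxin and 2.84, 3.48 and 4.92 TPM without auxin.

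Mir30a, at chr1:23272269-23272339, was detected mainly at 40 and 50 minutes. With auxin it was at 3.13 and 1.16 TPM at these times, and without auxin at 1.31 and 0.819 TPM. It was listed at 0 in asynchronous cells and at 60, 90 and 120 minutes in both arms, and at 0.290 TPM or less with auxin and 0.248 TPM or less without auxin elsewhere. The nearest listed gene lay 94085 bp away, so no listed gene covers it.

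**Figure D1:**
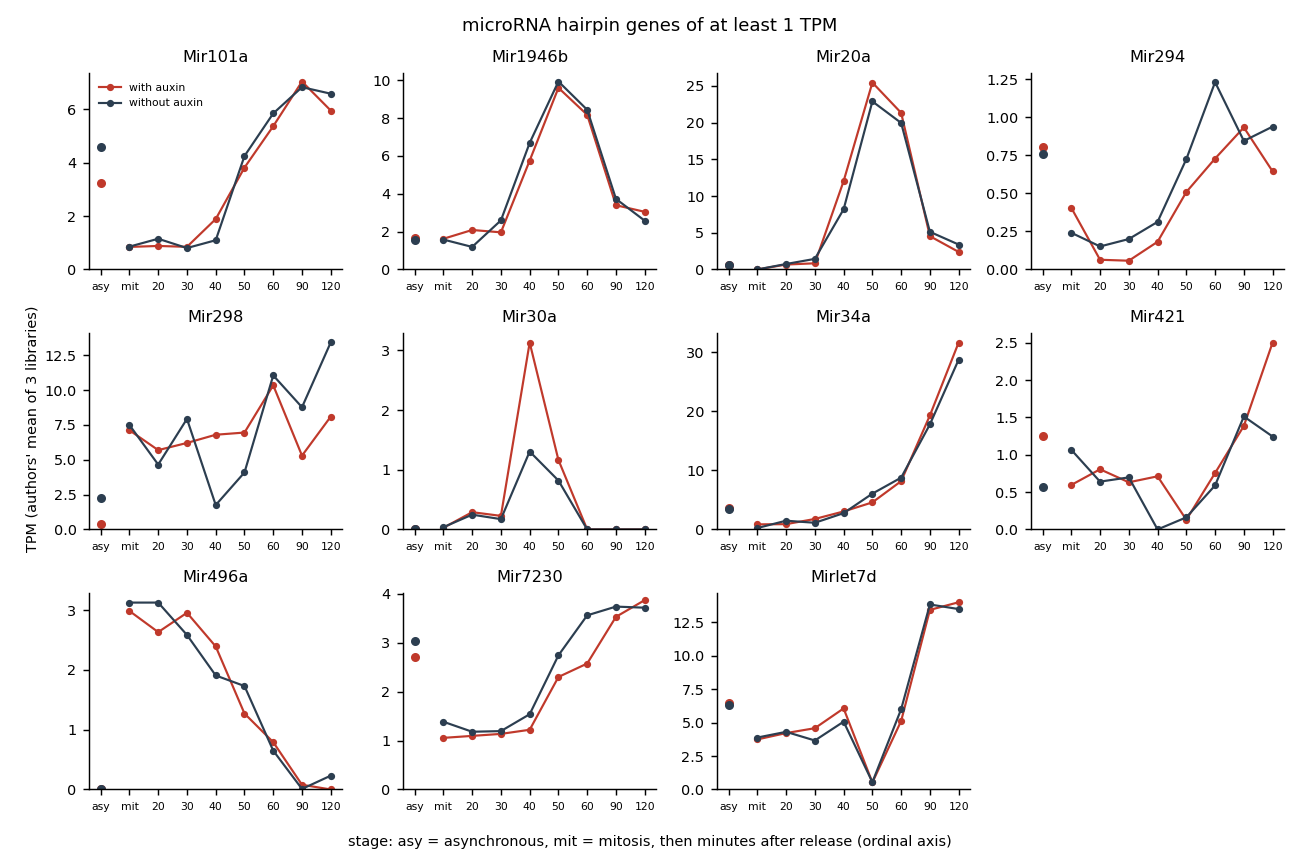
RNA level (TPM, authors' mean of 3 libraries, linear axis from 0) of the 11 hairpin genes of at least 1 TPM by stage, with auxin in red and without auxin in dark blue; asynchronous cells are the separate points at the left of each panel. Mir20a and Mir1946b have their highest column at 50 minutes and Mir34a at 120 minutes in both arms, while the arms of Mir298 cross more than once.

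Among hairpins with a late gain, Mir34a encodes a microRNA known as a direct p53 target that restrains the cell cycle, and lies at chr4:150068454-150068555. With auxin, Mir34a stood at 3.6 TPM in asynchronous cells and 0.862 TPM in mitosis, then 0.898, 1.78, 3.05, 4.58, 8.18, 19.3 and 31.7 TPM after release. Without auxin, Mir34a stood at 3.53 TPM in asynchronous cells and 0.241 TPM in mitosis, then 1.48, 1.13, 2.76, 6.06, 8.77, 17.8 and 28.8 TPM after release. Levels were higher at each release time from 50 minutes on than at the time before, in both arms. The log2 ratio to mitosis was 4.13 with auxin and 4.58 without auxin at 120 minutes, 3.30 and 3.77 above the median gene. Between 60 and 120 minutes the level was more than 2-fold higher in both arms, which held for 2 of 24 members with auxin and 3 of 24 without auxin, against 1.11% and 0.8% of all genes.

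Mirlet7d, at chr13:48536012-48536114, encodes a let-7 microRNA, the family that LIN28 proteins keep low in ES cells. With auxin, Mirlet7d stood at 6.5 TPM in asynchronous cells and 3.74 TPM in mitosis, then 4.22, 4.58, 6.06, 0.523, 5.13, 13.4 and 14 TPM after release. Without auxin, Mirlet7d stood at 6.32 TPM in asynchronous cells and 3.88 TPM in mitosis, then 4.31, 3.66, 5.07, 0.543, 6.0, 13.8 and 13.5 TPM after release. Both arms had a single low column at 50 minutes, between values of 5.07 TPM or more at 40 and 60 minutes. The dip was thus present in 2 separate groups of libraries, whose log2 ratios to mitosis at 50 minutes were -1.64 with auxin and -1.66 without auxin. At 90 and 120 minutes the level was about the same in both arms and above every earlier stage.

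Mir101a, at chr4:101346945-101347027, encodes a microRNA known in human cells to repress EZH2. With auxin, Mir101a stood at 3.25 TPM in asynchronous cells and 0.845 TPM in mitosis, then 0.882, 0.849, 1.89, 3.82, 5.37, 7.05 and 5.96 TPM after release. Without auxin, Mir101a stood at 4.58 TPM in asynchronous cells and 0.856 TPM in mitosis, then 1.15, 0.803, 1.1, 4.25, 5.85, 6.84 and 6.59 TPM after release. It lies inside the long noncoding RNA gene E130102H24Rik. With auxin, E130102H24Rik stood at 0.548 TPM in asynchronous cells and 1.77 TPM in mitosis, then 1.62, 1.72, 0.953, 0.298, 0.291, 0.202 and 0.131 TPM after release. Without auxin, E130102H24Rik stood at 0 TPM in asynchronous cells and 2.04 TPM in mitosis, then 1.66, 1.98, 2.18, 0, 0.179, 0.141 and 0.116 TPM after release. The surrounding gene was highest between mitosis and 40 minutes, when Mir101a stood at 1.89 TPM or less with auxin and 1.15 TPM or less without auxin. The surrounding gene was at or under 0.298 TPM with auxin and 0.179 TPM without auxin from 50 minutes on. How reads were split between the pair was not tested.

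Mir496a, at chr12:109739119-109739197, lies in the imprinted Dlk1-Dio3 region, inside Mirg, a long RNA gene that carries a large microRNA cluster. With auxin, Mir496a stood at 0 TPM in asynchronous cells and 2.99 TPM in mitosis, then 2.63, 2.96, 2.39, 1.27, 0.791, 0.0786 and 0 TPM after release. Without auxin, Mir496a stood at 0 TPM in asynchronous cells and 3.13 TPM in mitosis, then 3.13, 2.59, 1.91, 1.73, 0.649, 0.0088 and 0.231 TPM after release. At 60 and 120 minutes Mir496a was the member with the lowest ratio to mitosis in both arms. Its log2 values were -1.15 with auxin and -1.32 without auxin at 60 minutes, and -2.0 and -1.75 at 120 minutes. Being 2-fold below mitosis was rare: 0.0556% of all genes with auxin and 0.0333% without auxin at 60 minutes, and 0.0333% and 0.0444% at 120 minutes. With auxin, Mirg stood at 7.0 TPM in asynchronous cells and 2.37 TPM in mitosis, then 2.35, 2.0, 1.56, 0.96, 0.537, 1.58 and 9.48 TPM after release. Without auxin, Mirg stood at 6.92 TPM in asynchronous cells and 2.38 TPM in mitosis, then 2.27, 2.21, 1.77, 0.80, 0.606, 1.32 and 9.72 TPM after release. Mirg shared the decline to 60 minutes but was at its highest at 120 minutes and high in asynchronous cells, where Mir496a was listed at 0.

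The remaining hairpins had lower or less ordered values. Mir7230, at chr5:113337590-113337645, is a hairpin of no role stated here. With auxin, Mir7230 stood at 2.7 TPM in asynchronous cells and 1.06 TPM in mitosis, then 1.1, 1.14, 1.22, 2.3, 2.58, 3.53 and 3.87 TPM after release. Without auxin, Mir7230 stood at 3.04 TPM in asynchronous cells and 1.38 TPM in mitosis, then 1.18, 1.19, 1.54, 2.74, 3.56, 3.74 and 3.72 TPM after release. Its levels were higher from 50 minutes on in both arms, with a ratio at 60 minutes close to the median gene (-0.15 with auxin and -0.08 without auxin relative to it). Mir421, at chrX:103572921-103572996, lies inside Ftx, a noncoding gene of the X inactivation centre. Mir421 reached 2.5 TPM with auxin and 1.24 TPM without auxin at 120 minutes, where Ftx stood at 5.27 TPM with auxin and 5.05 TPM without auxin. Mir421 was low at 50 minutes in both arms, 0.130 TPM with auxin and 0.162 TPM without auxin, while Ftx was at 2.08 and 2.22 TPM, and without auxin it was listed at 0 at 40 minutes. Mir294, at chr7:3220641-3220724, belongs to the miR-290 cluster that dominates the microRNAs of ES cells, yet it passed 1 TPM in 1 column alone, 1.23 TPM at 60 minutes without auxin, against 0.728 TPM at that time with auxin. Its range was 0.0574 to 0.933 TPM with auxin and 0.151 to 1.23 TPM without auxin. Mir294 overlaps the protein-coding gene Nlrp12 and the long noncoding RNA gene D7Ertd143e, which is not in the expression table. How reads were split between these genes was not tested. RNA of the hairpin gene is not a measure of the mature microRNA.

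**Figure D2:**
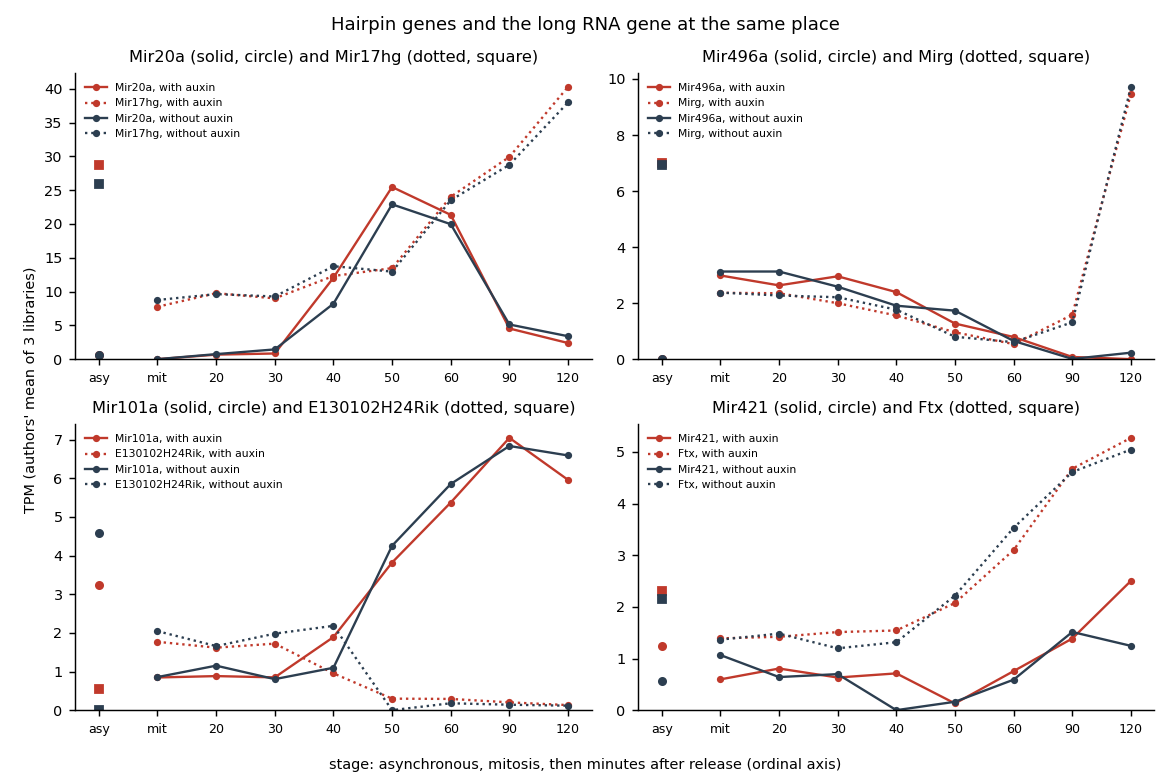
RNA level (TPM, authors' mean of 3 libraries, linear axis from 0) of 4 hairpin genes (solid lines and circles) and of the long gene at the same place (dotted lines; squares for asynchronous cells), with auxin in red and without auxin in dark blue. Mir20a is back below 4 TPM at 120 minutes where Mir17hg is highest, Mir496a is near 0 in asynchronous cells and at 120 minutes where Mirg is highest, Mir101a and E130102H24Rik run in opposite directions, and Ftx stays above Mir421.

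Among the hosts, Gas5 carries several box C/D snoRNAs and encodes an RNA known to bind the glucocorticoid receptor in human cells. It lies at chr1:161034601-161038539, and its span overlaps the protein-coding gene Zbtb37 and 8 annotated snoRNA genes. With auxin, Gas5 stood at 10.7 TPM in asynchronous cells and 1.13 TPM in mitosis, then 1.9, 2.01, 6.98, 12.1, 11, 10.1 and 12.4 TPM after release. Without auxin, Gas5 stood at 8.96 TPM in asynchronous cells and 1.09 TPM in mitosis, then 1.72, 2.03, 5.18, 9.28, 9.67, 10.5 and 11.4 TPM after release. The lowest columns were mitosis, 20 and 30 minutes in both arms, and from 50 minutes on the values were near those of asynchronous cells. The log2 ratio to mitosis at 40 minutes was 1.91 with auxin and 1.57 without auxin. At 40 minutes 7 of 24 members were 2-fold above mitosis with auxin and 9 of 24 without auxin, against 6.01% and 5.73% of all genes. Gas5 was among them in both arms, with Mir20a, Mir1946b, Mir30a, Mir34a and Snhg6. The overlapping Zbtb37 stayed at 2.55 TPM or less with auxin and 2.5 TPM or less without auxin.

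Snhg6, a host of the box C/D snoRNA Snord87, had the largest ratio of the hosts at 60 minutes. Its span overlaps the protein-coding gene Mcmdc2, and how reads were split between the pair was not tested. With auxin, Snhg6 stood at 5.24 TPM in asynchronous cells and 0.446 TPM in mitosis, then 0, 1.73, 3.56, 5.16, 13.1, 6.88 and 10.1 TPM after release. Without auxin, Snhg6 stood at 3.3 TPM in asynchronous cells and 0.814 TPM in mitosis, then 0, 0.865, 9.38, 11.9, 13.6, 4.95 and 11.8 TPM after release. It was listed at 0 at 20 minutes in both arms. The log2 ratio of 60 minutes to mitosis was 3.28 with auxin and 3.01 without auxin. At 40 and 50 minutes the columns with auxin were lower, by 1.19 and 1.07 on the log2 scale, while at 30 and 90 minutes they were higher, by 0.55 and 0.41.

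Snhg10 hosts the small Cajal body RNA Scarna13 and lies 339 bp from Glrx5, a mitochondrial iron-sulphur protein gene. With auxin, Snhg10 stood at 3.87 TPM in asynchronous cells and 4.45 TPM in mitosis, then 4.17, 4.5, 7.5, 12.5, 15.3, 14.5 and 14.2 TPM after release. Without auxin, Snhg10 stood at 4.4 TPM in asynchronous cells and 5.0 TPM in mitosis, then 4.53, 5.3, 7.14, 12.1, 15.8, 14.3 and 13.3 TPM after release. Levels in asynchronous cells were as low as in mitosis, and those from 50 minutes on were more than 12 TPM in both arms. The arms differed by at most 0.20 in log2(TPM + 1) at every stage. Snhg4, a host of the H/ACA snoRNA Snora74a on chromosome 18, followed a slower course. With auxin, Snhg4 stood at 16.6 TPM in asynchronous cells and 11.4 TPM in mitosis, then 11.3, 11.7, 14.5, 19.2, 23.5, 27.7 and 26.4 TPM after release. Without auxin, Snhg4 stood at 17.2 TPM in asynchronous cells and 9.97 TPM in mitosis, then 10.8, 9.55, 11.5, 18.5, 23.2, 25.5 and 23.7 TPM after release. It stood highest at 90 minutes in both arms.

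Mir22hg hosts miR-22 and lies at chr11:75461539-75466690. With auxin, Mir22hg stood at 1.01 TPM in asynchronous cells and 0.352 TPM in mitosis, then 0.502, 0.998, 1.6, 3.13, 6.45, 7.26 and 5.22 TPM after release. Without auxin, Mir22hg stood at 1.56 TPM in asynchronous cells and 0.623 TPM in mitosis, then 0.468, 0.837, 2.39, 4.47, 6.4, 7.69 and 6.93 TPM after release. The highest column was 90 minutes in both arms. The log2 ratio to mitosis at 60 minutes was 2.46 with auxin and 2.19 without auxin, where the mitotic levels were 0.352 and 0.623 TPM. Snhg11 had a smaller range. With auxin, Snhg11 stood at 1.65 TPM in asynchronous cells and 0.893 TPM in mitosis, then 0.826, 0.861, 0.915, 1.19, 1.51, 2.09 and 2.27 TPM after release. Without auxin, Snhg11 stood at 1.49 TPM in asynchronous cells and 1.08 TPM in mitosis, then 1.02, 0.683, 0.894, 1.1, 1.53, 2.24 and 2.08 TPM after release. Its log2 ratios at 60 minutes were below those of the median gene, standing at -0.54 with auxin and -0.73 without auxin relative to it.

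Snhg9, a short host (435 bp) of the H/ACA snoRNA Snora78, overlaps Rps2, which encodes a protein of the small ribosomal subunit. With auxin, Snhg9 stood at 3.82 TPM in asynchronous cells and 0.551 TPM in mitosis, then 1.37, 1.23, 2.64, 3.76, 4.13, 5.19 and 3.7 TPM after release. Without auxin, Snhg9 stood at 3.57 TPM in asynchronous cells and 2.23 TPM in mitosis, then 2.82, 0.886, 3.54, 5.39, 6.44, 6.82 and 5.04 TPM after release. With auxin the level was lower at 6 of 7 release times, the exception being 30 minutes. Rps2 had 2.44 TPM with auxin and 2.77 TPM without auxin in mitosis, and 8.55 TPM with auxin and 8.15 TPM without auxin at 90 minutes, where Snhg9 had 5.19 and 6.82 TPM. Reads from the pair may be split uncertainly.

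Snhg15, a host of 1 annotated snoRNA, had the largest single-stage difference between arms among hosts of at least 1 TPM in 9 or more columns. With auxin, Snhg15 stood at 8.31 TPM in asynchronous cells and 2.58 TPM in mitosis, then 2.95, 8.93, 5.86, 33.8, 18.4, 8.44 and 3.89 TPM after release. Without auxin, Snhg15 stood at 10.1 TPM in asynchronous cells and 8.34 TPM in mitosis, then 3.42, 8.13, 33.3, 22.8, 14.9, 19 and 5.52 TPM after release. The highest column was 50 minutes with auxin and 40 minutes without auxin, and these peak levels were alike. Myo1g, the nearest listed gene at 4631 bp, had 2.17, 5.84 and 5.68 TPM at 40, 50 and 60 minutes with auxin and 2.0, 5.66 and 5.44 TPM without auxin, and so gave no such shift between arms. A mean of 3 libraries cannot show whether 1 library carries a high column.

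**Figure D3:**
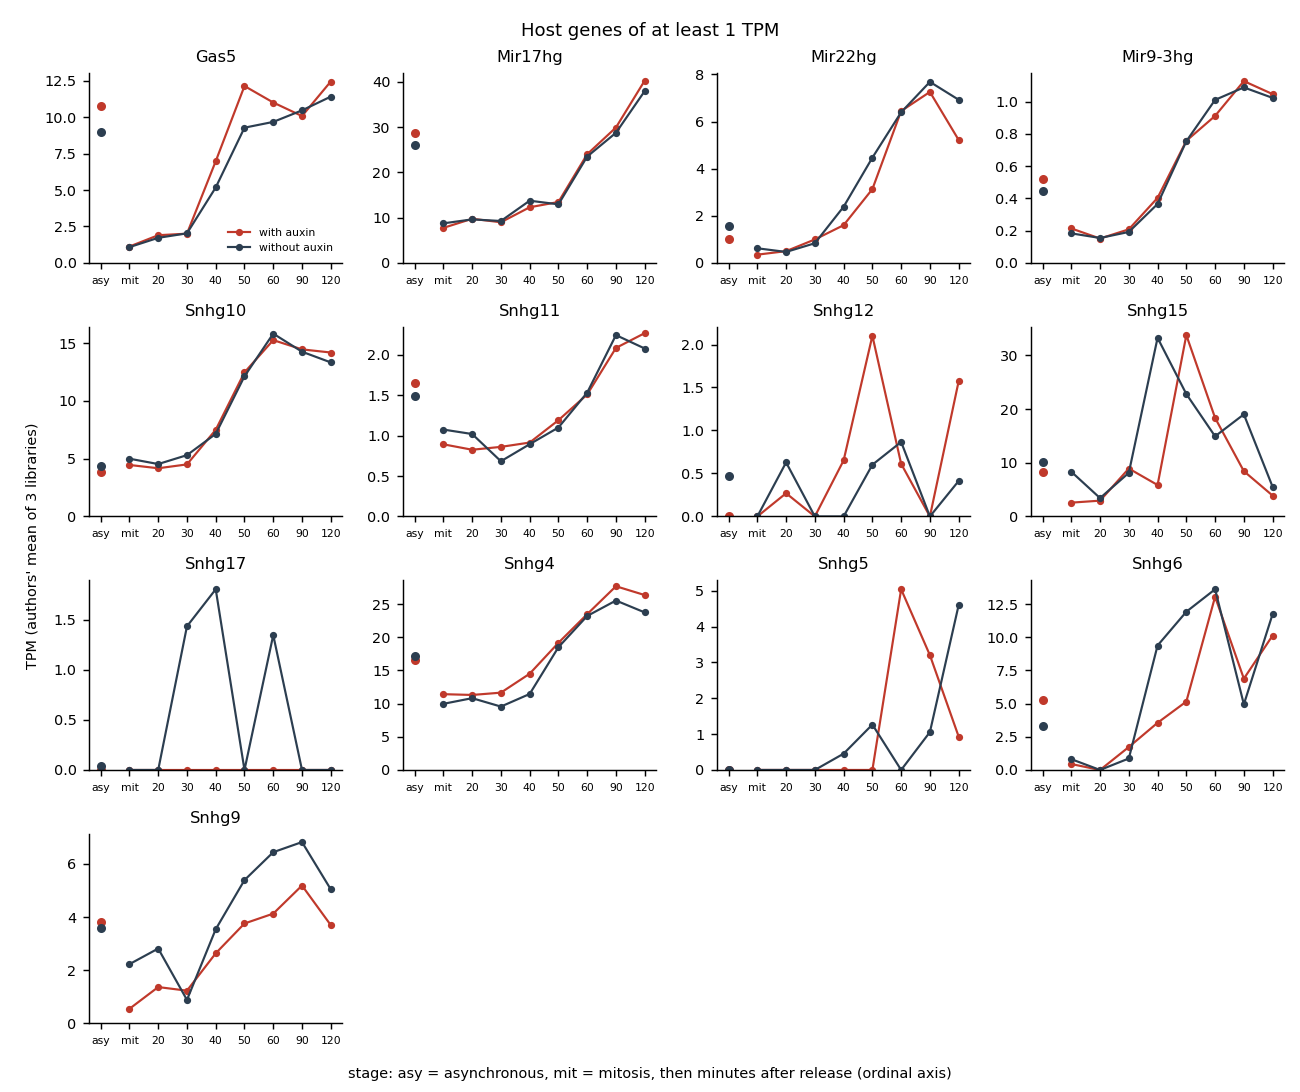
RNA level (TPM, authors' mean of 3 libraries, linear axis from 0) of the 13 hosts of at least 1 TPM by stage, with auxin in red and without auxin in dark blue; asynchronous cells are the separate points at the left. Gas5, Mir17hg, Snhg10 and Snhg4 run close together in both arms, while Snhg15 is highest at 50 minutes with auxin and at 40 minutes without auxin, and Snhg5, Snhg12 and Snhg17 are at 0 in many columns.

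The other 4 hosts of at least 1 TPM passed that level in few columns. Mir9-3hg, which hosts miR-9, was highest at 90 minutes in both arms, at 1.13 TPM with auxin and 1.09 TPM without auxin, and lowest at 20 minutes, at 0.151 and 0.155 TPM. Snhg5 was listed at 0 up to 50 minutes with auxin and up to 30 minutes without auxin. It then stood at 5.04, 3.2 and 0.931 TPM at 60, 90 and 120 minutes with auxin. Without auxin Snhg5 stood at 0.455, 1.27, 0, 1.06 and 4.6 TPM from 40 minutes on, so the arm with the higher value changed between 60 and 120 minutes. Snhg12, a host of 4 annotated snoRNAs, was at most 2.1 TPM with auxin, at 50 minutes, and 0.867 TPM without auxin, at 60 minutes. Snhg17 was listed at 0 in every column with auxin. Without auxin it was at 0.0347 TPM in asynchronous cells and at 1.43, 1.8 and 1.35 TPM at 30, 40 and 60 minutes, and listed at 0 elsewhere.

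The 9 members below 1 TPM in every column were Mir124a-1hg, Mir155hg, Mir290a, Mir3078, Mir8110, Mir96, Snhg14, Snhg18 and Snhg20. Their highest values lay between 0.125 TPM (Snhg14) and 0.828 TPM (Snhg18). Mir290a, the first hairpin of the miR-290 cluster, was at most 0.322 TPM with auxin and 0.507 TPM without auxin, both at 50 minutes. Like Mir294, Mir290a overlaps Nlrp12. Mir96 was listed at 0 in every column without auxin and at 0.133 and 0.371 TPM at 20 and 90 minutes with auxin. Mir155hg, host of an immune cell microRNA, and Mir124a-1hg, host of a neuronal one, stayed at or below 0.295 and 0.405 TPM with auxin and 0.349 and 0.269 TPM without auxin.

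A single-column spike was defined as a highest column at least 3 times the second highest in a gene of at least 1 TPM. None of the 24 members was one, against 2 of 8999 genes, 0.0222%. The member closest to the limit was Mir30a, whose 3.13 TPM at 40 minutes with auxin was 2.40 times its second column, 1.31 TPM at 40 minutes without auxin. Below the 1 TPM floor Mir96 reached 2.78 and Snhg20 2.07 times the second column. The rule compares columns whatever their stage or arm, so it does not show whether the arms agree. By their values, the high columns of Mir20a, Mir1946b, Mir34a and Mirlet7d were each found in both arms.

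Zeros were more common than spikes. Of the 24 members 8 were listed at 0 in at least 1 column, against 0.867% of all genes: Mir20a, Mir30a, Mir421, Mir496a, Snhg12, Snhg17, Snhg5 and Snhg6. Snhg17 was at 0 in 14 columns, Snhg5 in 11, and Mir30a and Snhg12 in 8 each. Members are short, with a median span of 84 bp for the 15 hairpin genes and 3554.5 bp for the 18 hosts, against 21858 bp over genes of at least 1 TPM with a position. Among 992 such genes of at most 5000 bp that are no member, a split chosen after the values were seen, 4.23% were listed at 0 in at least 1 column. The part of gene length in the zeros was not tested.

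At 60 minutes the members stood above mitosis to a like extent as all genes, while at 40, 50 and 120 minutes a larger share of members than of all genes was past 2-fold. The median log2 ratio at 60 minutes was 1.25 over the 24 members with auxin and 1.04 without auxin, against 0.95 and 1.01 over all genes. At 50 minutes 12 of 24 members with auxin and 10 of 24 without auxin were 2-fold above mitosis, against 30.5% and 30.6% of all genes. At 120 minutes these counts were 14 and 11 of 24, against 34.9% and 33.1%. In asynchronous cells 7 members with auxin and 5 without auxin were 2-fold above mitosis, against 2.5% and 2.82%, and Gas5, Mir101a, Mir17hg, Mir34a and Snhg6 were so in both arms. The 13 hosts had medians at 60 minutes of 1.58 with auxin and 1.2 without auxin, and the 11 hairpin genes 0.48 and 0.85. Quantile normalization, which removes the common shift, left 5 of 24 members without auxin past 2-fold at 60 minutes, against 5.15% of all genes. The median log2 ratio over all genes was then 0.02, so a ratio below mitosis was common. At that time without auxin, the ratio turned from above to below mitosis for Mir298, Mir7230, Mirlet7d, Snhg11, Snhg15, Snhg4 and Snhg9. Mir30a, Mir421 and Mir496a had log2 ratios of -0.05, -0.38 and -1.32 before this normalization, and their sign did not turn. Gas5, Snhg6, Mir34a, Mir17hg, Mir101a and Mir22hg stood above the middle 95% of all genes at 120 minutes in both arms.

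**Figure D4:**
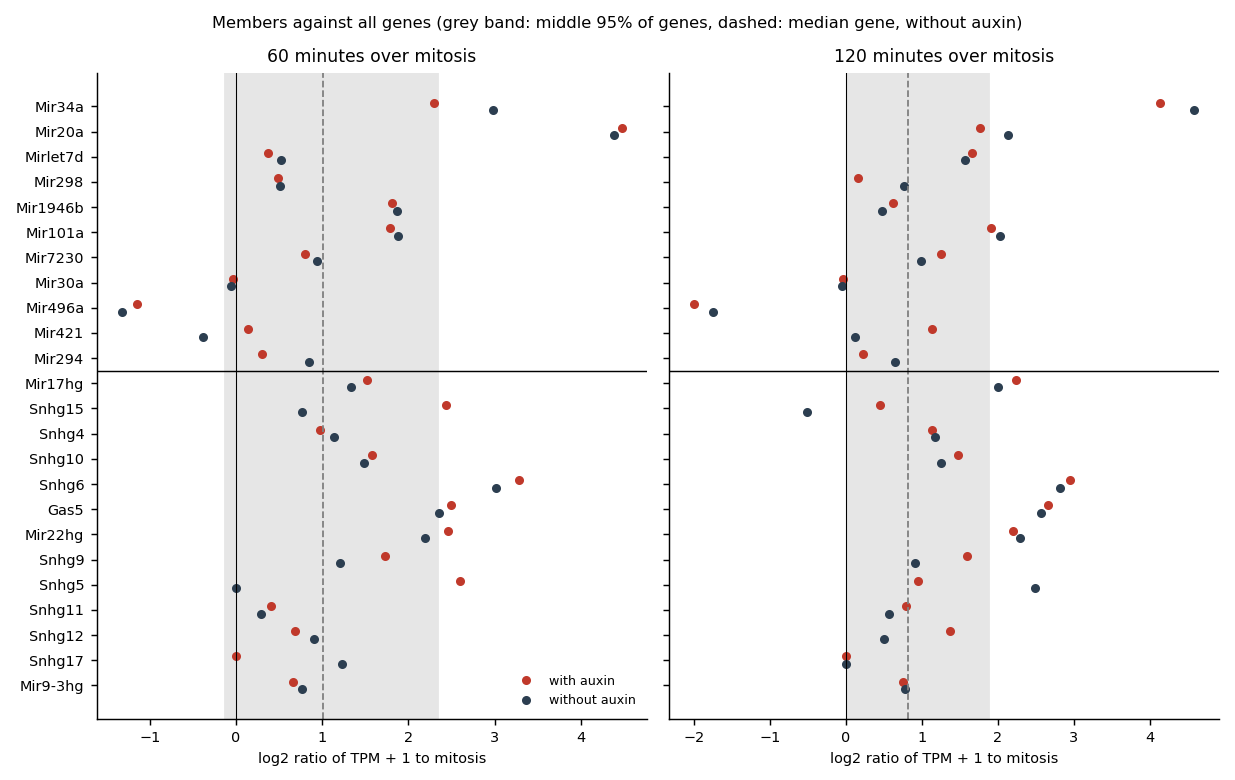
Log2 ratio of TPM + 1 to mitosis of the same arm at 60 minutes (left) and 120 minutes (right) for the 24 members of at least 1 TPM, hairpin genes above the line and hosts below, with auxin in red and without auxin in dark blue. The grey band holds the middle 95% of all genes and the dashed line their median, both without auxin; Mir20a, Gas5 and Snhg6 lie right of the band in both arms at 60 minutes, Mir34a, Gas5 and Snhg6 at 120 minutes, and Mir496a lies left of it at both times. Mir20a, Snhg12, Snhg17 and Snhg5 were listed at 0 in mitosis, so their positions depend on the added 1.

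The next comparison asks how these genes differed when both receptors were degraded. The authors' deposited table calls 4 of the 24 members lower with auxin, Mir101a, Mir22hg, Mir298 and Snhg15, against 9.46% of the 8999 genes. The authors' deposited table calls 1 higher, Snhg4, against 8.52%. The sources used here give neither the test nor the stages behind the calls, which were made on these samples. Of the 9 members under 1 TPM none was called. On average over the 7 release times 12 of 24 members were lower with auxin, against 39.2% of all genes, with a median log2 difference of 0.00 against 0.02. No member was lower at all 7 times, against 5.33% of all genes, and Snhg4 alone was higher at all 7, against 3.88%. Here and below, differences are with auxin minus without auxin in log2(TPM + 1).

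Mir298, at chr2:174267504-174267585 near the imprinted Gnas locus, shows how little a mean over times says for some members. With auxin, Mir298 stood at 0.37 TPM in asynchronous cells and 7.12 TPM in mitosis, then 5.69, 6.21, 6.8, 6.96, 10.3, 5.3 and 8.1 TPM after release. Without auxin, Mir298 stood at 2.25 TPM in asynchronous cells and 7.5 TPM in mitosis, then 4.66, 7.94, 1.75, 4.09, 11.1, 8.77 and 13.4 TPM after release. The difference was -1.25 in asynchronous cells. After release it was 1.5 at 40 and 0.64 at 50 minutes, with auxin higher, and -0.63 at 90 and -0.66 at 120 minutes, with auxin lower. Its mean over the release times was 0.10, above 0, although the authors' deposited table calls it lower. Without the 40 minute columns that mean was -0.13.

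Snhg15 had the largest mean difference after release of the 5 called members, -0.43, from means of 11.7 TPM with auxin and 15.3 TPM without auxin. It was lower with auxin in mitosis (-1.38) and at 40 and 90 minutes (-2.32 and -1.09), and higher at 50 and 60 minutes (0.55 and 0.28). The sign thus depended on the time. Mir22hg averaged 3.60 TPM with auxin and 4.17 TPM without auxin after release, a difference of -0.15, and was lower in asynchronous cells by -0.34. Mir101a averaged 3.69 TPM with auxin and 3.80 TPM without auxin, a difference of -0.0014, and -0.39 in asynchronous cells.

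Snhg4 averaged 19.2 TPM with auxin and 17.5 TPM without auxin after release, a difference of 0.14, and was higher at each of the 7 times by 0.02 to 0.32. It was lower in asynchronous cells by a difference of -0.05. Matr3, which encodes a nuclear matrix RNA-binding protein 3842 bp from Snhg4, is also called higher in the authors' deposited table. At 40 minutes Matr3 stood at 8.11 TPM with auxin and 6.13 TPM without auxin.

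No member differed 1.5-fold on average after release, against 0.0667% of all genes. At single stages, however, 10 of 24 members were 1.5-fold apart at 1 or more of the 9 stages, against 1.97% of all genes and 8.87% of the 992 genes of at most 5000 bp that are no member. These were Mir298, Mir30a, Mir34a, Mir421, Snhg12, Snhg15, Snhg17, Snhg5, Snhg6 and Snhg9. Mir298 and Snhg5 were 1.5-fold lower with auxin at 1 or more release times and 1.5-fold higher at another, against 0.167% of all genes. Of the 17 members of at least 1 TPM in 9 or more columns, 5 were 1.5-fold apart at a stage. With no value per library, spread within groups cannot be set against these differences. Mir17hg, Snhg10, Snhg11 and Mir9-3hg differed by at most 0.20 at every stage.

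**Figure D5:**
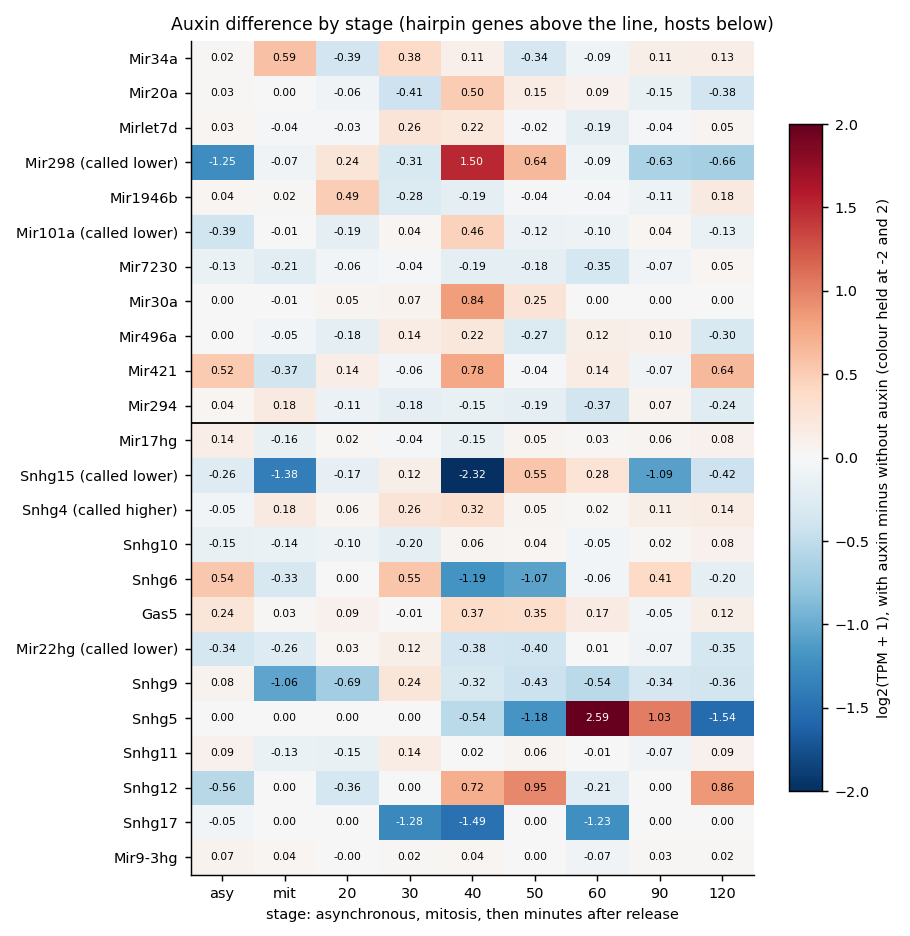
Difference in log2(TPM + 1), with auxin minus without auxin, for the 24 members (rows, hairpin genes above the line and hosts below, each ordered by highest TPM) at the 9 stages (columns); red is higher and blue lower with auxin, and colours are held at -2 and 2. The rows of Mir298 and Snhg5 hold both strong red and strong blue cells. Those of Snhg15 and Snhg6 hold strong blue and paler red cells, while Mir17hg, Snhg10 and Snhg11 are pale throughout.

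The Nr5a2 peak list was set against the members' positions. A peak overlapped the gene or its flanks of 10 kb for 24 of the 33 members and for 16 of the 24 of at least 1 TPM. The share was 72% of the 8943 genes of at least 1 TPM with a position. The searched stretch includes the gene, and members are short, so theirs is mostly smaller than that of other genes. The part of gene length in these shares was not tested. The 57 distinct peaks near members carry class codes L, eB, dB and nB that the sources used here do not define. Mir22hg held a peak of class L at chr11:75461708-75463079, within its own span. The miR-290 cluster had the densest set, with 8 peaks within 10 kb of Mir290a and 7 within 10 kb of Mir294, all of these among the 8. None lay within 10 kb of Mir101a, Mir20a, Mir17hg, Mir34a, Mir30a, Mir421, Mir496a or Gas5. Of the 5 called members, Mir22hg, Mir298, Snhg15 and Snhg4 had a peak within 10 kb.

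Of 15 members with a RefSeq promoter window (250 bases before to 50 after a start), 2 had a peak over it, Snhg10 and Snhg17, both of class eB. This is 13.3%, against 14.4% of 7266 genes of at least 1 TPM. The Snhg10 window is shown because a peak, chr12:105032348-105032607 in the authors' list, covers 182 of its 300 bases. Glrx5 lies 339 bp from Snhg10, and to which gene the peak belongs was not tested. The window is chr12:105032230-105032529 on the minus strand, GRCm38.p6, with the bases under the peak in capitals.
Snhg10 promoter: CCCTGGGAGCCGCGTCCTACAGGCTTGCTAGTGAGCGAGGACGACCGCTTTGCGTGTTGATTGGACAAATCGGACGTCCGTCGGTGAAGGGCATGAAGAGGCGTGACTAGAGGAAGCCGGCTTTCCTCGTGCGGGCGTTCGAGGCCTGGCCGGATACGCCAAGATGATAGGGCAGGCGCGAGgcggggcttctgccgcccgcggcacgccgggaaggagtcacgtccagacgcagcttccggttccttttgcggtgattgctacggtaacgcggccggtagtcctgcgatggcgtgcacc
The extended Nr5a2 and Esrrb motif TCAAGGTCA was searched on both strands. It was in none of the members' windows searched and in 0.423% of all promoter windows in the table. Its shorter core AAGGTCA, which every match of the longer motif contains, was in 4.72% of all windows. Among the members searched it was in that of Snhg18 alone, 17 bases before the start, on the strand opposite to the gene.

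Genes that make, bind or destroy these RNAs were also looked up. The authors' deposited table calls 2 of 24 microRNA processing genes lower, Trim71 and Zfp281, and 3 higher, Dis3l2, Lin28a and Lin28b, against 7.26% and 6.74% of all 13957 genes. LIN28A and LIN28B block let-7 maturation and DIS3L2 degrades the blocked precursor. Lin28b averaged 2.36 TPM with auxin and 2.12 TPM without auxin after release, and Lin28a 4.97 and 4.72 TPM. Zfp281 averaged 0.593 TPM with auxin and 0.988 TPM without auxin, and Trim71 14.5 and 15.3 TPM. The highest members of that list, Ybx1 and Ddx5, were not called.

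Among 34 other hosts of microRNAs, 3 are called lower in the authors' deposited table, Mcm7, Sfmbt2 and Slit2, and 5 higher, Lpp, Mest, Pank3, Ppargc1b and Smc4, against the same 7.26% and 6.74%. Mcm7, a replicative helicase subunit, hosts microRNAs of the miR-17 family in an intron. Mcm7 averaged 16.1 TPM with auxin and 18.5 TPM without auxin after release. Smc4, a condensin subunit that hosts miR-15b and miR-16-2, averaged 11.3 TPM with auxin and 10.4 TPM without auxin. Over genes of at least 1 TPM the median log2 ratio to mitosis at 60 minutes was 0.71 with auxin and 0.79 without auxin for microRNA processing, and 0.88 and 0.98 for these other hosts. Among 17 box C/D and H/ACA snoRNP genes the authors' deposited table calls Ruvbl2 lower and Naf1 higher, and the highest, Nop56 and Nop58, were not called. Nop56 is itself a snoRNA host.

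The 39 other snoRNA hosts, mostly ribosomal protein and translation genes, had a median log2 ratio to mitosis at 60 minutes of 1.5 in both arms, beside 1.65 with auxin and 1.17 without auxin over the 10 noncoding snoRNA hosts of at least 1 TPM. All 39 were above mitosis at 60 minutes in both arms. In the authors' deposited table Hspa8 and Rpl10 are called higher, and Rpl13a, with Nop56 the highest of the list, is not called. Rpl13a averaged 52.3 TPM with auxin and 56.8 TPM without auxin. Among 20 nonsense-mediated decay genes, none is called higher in the authors' deposited table, and those called lower include Rbm8a, which encodes an exon junction protein. The 2 highest, Etf1 and Upf1, were not called. The median log2 ratio to mitosis at 60 minutes was 0.83 with auxin and 0.88 without auxin for snoRNP genes, and 1.08 and 1.18 for decay genes.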

How the data were processed

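RNA was measured in 54 libraries and Nr5a2 binding in 12. The authors deposited expression as TPM, 1 column per group, each the mean of 3 libraries, so depth and spread are unknown and no counting interval can be given. Per the submitters' processing notes, the tools were STAR, RSEM, DESeq2, Bowtie2 and MACS2 and the build mm10, with no version given. The sources used here do not say which part of each gene RSEM quantified. The authors also deposited a call per gene and 1 list of 35266 peaks.

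From the TPM, log2(TPM + 1) was computed with Python 3.11.15 and pandas 2.3.3, and groups were compared as descriptions, beside the 8999 genes of at least 1 TPM in any column. The planned limma fit was not run, since the columns used are group means. Every member of at least 1 TPM is named, and those at or above 1 TPM in 9 or more of 18 columns are given in all of them. Of the gene lists, members with a call and the 2 highest are named. Some results for genes outside the members are not reported here. Members and lists were chosen with earlier results of these data known. Gene positions are from RefSeq on GRCm38.p6 and peak positions are as the authors' list gives them. The scripts were tested on simulated data. Other thresholds, pseudocounts, scalings, windows and single times left out were tried.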

Additional observations from a re-analysis of the deposited data

How the results depend on the processing

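No paired analysis was possible because the columns are means of 3 libraries and carry no replicate numbers, and for the same reason no replicate could be left out. The 24 members of at least 1 TPM were 28 at 0.5 TPM, 21 at 2 TPM and 23 where 2 columns had to pass. With a 2-fold limit 1 member, Mir30a, became a single-column spike. Since no member was a spike at 3-fold, leaving spikes out changed nothing. The 12 members 2-fold above mitosis at 60 minutes without auxin were 16 with a pseudocount of 0.1 and 5 after quantile normalization, under which 5.15% of all genes passed. Their median log2 ratio of 1.04 was 1.57 with a pseudocount of 0.1, 0.77 with no filter and 0.13 after quantile normalization, against 0.02 over all genes. The median auxin difference of 0.00 was -0.0080 with a pseudocount of 0.1, -0.0146 with each stage centred on its median, -0.0156 after quantile normalization, 0.00525 without 20 minutes, -0.0327 without 40 minutes, 0.00622 without 50 minutes and -0.0128 without 90 minutes. Members lower with auxin on average numbered 10 to 18 under all alternatives tried. Of the named members, 12 of 24 changed the sign of the mean auxin difference under at least 1 alternative, among the called ones Mir298, which became -0.13 without 40 minutes, and Mir101a, whose difference is -0.0014. Snhg15, Mir22hg and Snhg4 did not. Members with a peak were 16 within 2 kb and 31 within 50 kb, against 24 within 10 kb. Members 1.5-fold apart at a stage numbered 10, and in alternatives chosen after seeing the data 16 with a pseudocount of 0.1, 11 after quantile normalization, 9 without 40 minutes and 5 among members of at least 1 TPM in 9 or more columns. Where a value moved, the cause was not tested. The depth behind each value is unknown.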
